A study of Mus musculus with 8 samples.

Results

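The axoneme is the microtubule core of the sperm tail, and its transcripts were taken here as the mouse protein-coding genes whose symbols begin with Dnah, Dnai, Dnal, Rsph, Cfap, Tekt or Drc. The table named 70 such genes among 55414, and 67 of them reached a mean of 1 FPKM over the 8 samples (a unit that scales the fragments of a gene to its length and to the size of the library), out of 22077 genes that did. The rule used symbols and the mean level over both groups, not the difference between groups. It was chosen with earlier results of these data known. Mouse testis samples, 4 labelled control and 4 labelled valine (a branched-chain amino acid), were compared, and the design text gives the effect of valine on the testis as the question. Neither the strain and age of the mice nor the dose, route and duration of valine is stated by the labels, and nothing says that samples of a group are different animals. Each p-value here accordingly reflects sample-to-sample spread that could be technical.

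In a motile flagellum, doublet microtubules surround a central pair. Outer and inner dynein arms on each doublet slide it against its neighbour, radial spokes carry signals from the central apparatus to the arms, and the nexin-dynein regulatory complex links doublets. Tektins and other microtubule inner proteins stiffen the doublets from within. In the testis these genes are transcribed from the meiotic and haploid stages of spermatogenesis, when the tail is built. Sperm and airway cilia use partly different paralogs, for example DNAH8 and DNAH17 in place of DNAH5, DNAH9 and DNAH11, and RSPH6A in place of RSPH4A.

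Many ciliary genes carry in their promoter the X-box, a site bound by RFX factors whose core reads GTTGCC on one strand and GGCAAC on the other. RefSeq promoter windows of 300 bases (GRCm38.p6) were matched for 57 of the 67 genes, giving 64 windows. The letters GTTGCC or GGCAAC stood in 23 of the 64 windows (35.9%), against 12.5% of all 32851 windows. The paired form, GTNNCC, then NN, then GGNAAC on either strand, which can overlap the shorter core, stood in 4 windows (6.25%), against 1.29% of all. The cAMP response element TGACGTCA, a site for CREM, stood in 1 window (1.56%), against 1.79% of all, and its core TGACGT on either strand, which it contains, in 5 (7.81%), against 7.51%. By call in the comparison below, the windows of 3 of 8 risen genes and 0 of 3 fallen genes held the X-box core. Of the 46 genes with a window that were not called, 18 held it. In Tekt2 the core stood upstream of the start, and in Tekt4 and Rsph3b after the start, at positions 9 and 17. The Tekt4 window also held the paired form, upstream of the start and left in lower case below. A match is a run of letters and not a measured binding site. The stretches below run from 200 bases before to 25 bases after the annotated start, 5′ to 3′ on the gene's strand, with the X-box core in capitals. The first 3 are the risen genes with the letters, and Cfap298, which was not called, is shown because it holds 4 copies. The coordinates belong to the RefSeq build and not to GRCm39, the build of the expression table: Tekt2 is at chr4:126325622-126325846 (minus strand), Tekt4 at chr17:25471390-25471614 (plus strand), Rsph3b at chr17:6948332-6948556 (minus strand) and Cfap298 at chr16:90934825-90935049 (minus strand).
Tekt2: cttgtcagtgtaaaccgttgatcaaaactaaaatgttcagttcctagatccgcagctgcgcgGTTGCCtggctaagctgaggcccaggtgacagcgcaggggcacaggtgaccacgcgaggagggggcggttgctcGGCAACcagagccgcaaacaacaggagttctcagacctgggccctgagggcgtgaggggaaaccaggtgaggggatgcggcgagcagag
Tekt4: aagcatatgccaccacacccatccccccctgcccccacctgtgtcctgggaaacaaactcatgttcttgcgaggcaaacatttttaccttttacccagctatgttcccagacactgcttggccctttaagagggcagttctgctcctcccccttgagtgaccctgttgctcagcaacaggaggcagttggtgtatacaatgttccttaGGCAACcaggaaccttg
Rsph3b: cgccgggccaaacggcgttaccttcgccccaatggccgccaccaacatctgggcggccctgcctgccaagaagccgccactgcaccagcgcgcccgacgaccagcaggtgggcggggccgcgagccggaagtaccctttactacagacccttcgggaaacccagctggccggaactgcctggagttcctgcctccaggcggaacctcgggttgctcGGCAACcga
Cfap298: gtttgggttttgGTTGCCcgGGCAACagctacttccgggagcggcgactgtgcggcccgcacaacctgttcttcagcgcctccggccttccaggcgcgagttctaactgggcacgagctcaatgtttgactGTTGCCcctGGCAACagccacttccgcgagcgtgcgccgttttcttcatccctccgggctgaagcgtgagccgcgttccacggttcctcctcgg

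The levels followed the sperm set of paralogs. Mean levels over the 8 samples were 208 FPKM for Dnah8 and 81.9 FPKM for Dnah17, against 1.85 FPKM for Dnah9, 0.997 FPKM for Dnah5 and 0.676 FPKM for Dnah11. Among the spoke heads Rsph6a stood at 294 FPKM and Rsph4a at 0.248 FPKM. Of 10 marker genes of multiciliated epithelium, 5 were under 1 FPKM, among them the regulators Gmnc (0.240 FPKM), Mcidas (0.0899 FPKM) and Myb (0.0776 FPKM). The summed level of that list was 260 to 292 FPKM in control and 285 to 298 FPKM in valine samples, most of it from Deup1 (248 FPKM), and limma called none of its 5 tested genes, with 1 at an unadjusted p below 0.05.

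Rsph1 was the most abundant gene of the set (1838 FPKM), followed by Cfap206 (677 FPKM), Tekt1 (461 FPKM), Cfap36 (454 FPKM) and Tekt4 (416 FPKM). The median over the 67 genes was 90.8 FPKM, against 8.28 FPKM over all tested genes. The expression minimum left out Dnah5, Dnah11 and Rsph4a. Dnah5 read 0.683, 1.51, 0.663 and 0.920 FPKM in the control samples and 1.53, 0.528, 1.54 and 0.598 FPKM in the valine samples. Just inside the minimum were Dnah9, Cfap97d2 (2.31 FPKM) and Cfap47 (4.202 FPKM).

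In the comparison of valine with control, 11 axoneme genes rose, 3 fell and 53 did not pass the test (limma on log2(FPKM + 1), Benjamini-Hochberg adjusted p below 0.05 over all 22077 genes). Over all tested genes 4.32% rose and 4.41% fell. The risen genes were 3 radial spoke genes, 2 tektins, 2 dynein light or light intermediate chains, 2 microtubule inner proteins and 2 other Cfap genes, namely Rsph1, Rsph3a, Rsph3b, Tekt2, Tekt4, Cfap36, Cfap45, Cfap53, Cfap299, Dnal4 and Dnali1. The fallen genes were the dynein heavy chains Dnah1, Dnah2 and Dnah17. Changes were small, with rises of 1.15-fold to 1.28-fold and falls of 1.22-fold to 1.37-fold on the log2(FPKM + 1) scale, which slightly understates changes of low genes. The valine samples lay wholly above the control samples in 14 of the 67 genes and wholly below in 4, against 8.99% and 9.39% of all tested genes. The median log2 change of the 67 genes was 0.07, against 0.02 over all tested genes, with 43 positive and 24 negative values. Rescaling the samples to equal FPKM totals moved the median of all tested genes by -0.10 on the log2 scale and left 28 of the 67 positive and 39 negative, with a median of -0.05. Calls then were 5 higher and 5 lower, where 1.64% and 9.16% of all tested genes were called, and quantile normalisation gave 3 higher and 5 lower calls (1.80% and 4.66%). The higher calls with equal totals were Cfap36, Cfap53, Rsph1, Rsph3a and Rsph3b, and with quantile normalisation Cfap45, Rsph3a and Rsph3b. The 11 risen genes kept a positive and the 3 fallen genes a negative change in all 20 alternatives tried. For most alternatives this was fixed in advance. The groups of each of these genes did not overlap, so leaving out 1 library, another pseudocount or array weights could not reverse a sign. Other minima, other moderation and the replicate block do not alter the change itself. Only equal totals, quantile normalisation and the trend removals could have reversed it. Leaving out 1 library gave 5 higher calls without control replicate 1 or valine replicate 1 and 7 without control replicate 2. No lower call was left without control replicate 1 or 2 or valine replicate 1, 2 or 4, and 1 was left without control replicate 4. In whole-tissue RNA, fewer cells of a type and less RNA per cell cannot be told apart.

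**Figure D1:**
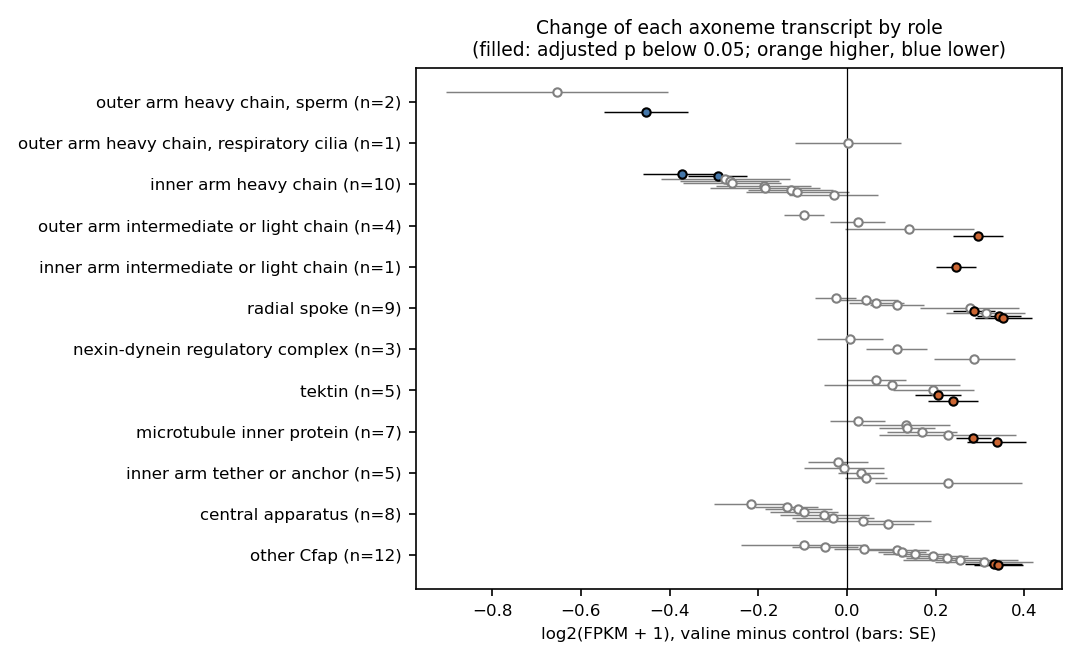
Each point is the log2 change (valine minus control, on log2(FPKM + 1)) of 1 of the 67 axoneme genes with its standard error, in rows by role. Filled points passed the test. The 3 filled points to the left are dynein heavy chains (-0.29 to -0.45), and the 11 filled points to the right (0.21 to 0.35) lie in other rows.

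The sperm outer arm heavy chains, the motors that drive most of the sliding force, had lower levels in every valine than in every control sample. So did 173 of the 701 tested genes of at least 12 kb and 9.39% of all tested genes. Dnah17 read 110, 92.2, 96.8 and 81.0 FPKM in the control samples and 65.2, 69.4, 75.9 and 64.9 FPKM in the valine samples. The groups did not overlap, and the level fell from 95.03 ± 12.1 to 68.9 ± 5.15 FPKM (mean ± SD, n = 4 in each group, here and below), a log2 change of -0.45 (SE 0.0953, limma adjusted p = 0.0249). The Dnah17 call was kept in 12 of 20 alternatives and was lost with the length trend described below removed (limma adjusted p = 0.135). Dnah8 read 208, 293, 237 and 263 FPKM in the control samples and 181, 200, 192 and 88.5 FPKM in the valine samples. These groups did not overlap either, but valine replicate 4 stood far below the rest, and the log2 change of -0.65 (SE 0.251) did not pass the test (limma adjusted p = 0.146). Without that library the log2 change of Dnah8 was -0.38 (limma adjusted p = 0.0934). Dnah9, the airway paralog, had near-equal group means of 1.86 ± 0.282 FPKM in control and 1.85 ± 0.127 FPKM in valine.

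Inner arm heavy chains set the waveform of the beat, and all 10 had a negative change, with a median log2 change of -0.22. Of all 701 tested genes of at least 12 kb, 571 had a negative change, and 3 of the 10 were positive once the length trend described below was removed. Dnah2 read 51.5, 48.9, 40.0 and 44.0 FPKM in the control samples and 33.7, 33.8, 38.9 and 34.6 FPKM in the valine samples. The highest valine sample was just below the lowest control sample, and the mean dropped from 46.1 ± 5.14 to 35.3 ± 2.47 FPKM, a log2 change of -0.37 (SE 0.0882) with a limma adjusted p of 0.0372. An antisense gene, Dnah2os, overlaps Dnah2, and without a stated strand setting the reads of the pair cannot be told apart. Dnah1, a heavy chain whose loss in mice and humans leaves sperm with poor motility, read 46.9, 41.0, 39.3 and 40.7 FPKM in the control samples and 33.4, 33.3, 36.0 and 33.4 FPKM in the valine samples. It did not overlap between groups and fell from 42.0 ± 3.38 to 34.0 ± 1.32 FPKM, a log2 change of -0.29 (SE 0.0661) with a limma adjusted p of 0.0322. Dnah2 and Dnah1 each kept the call in 9 of 20 alternatives and lost it with the length trend removed.

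The other 8 inner arm heavy chains did not pass the test. Their log2 changes lay between -0.27 for Dnah3 (24.8 ± 4.85 FPKM in control, 20.1 ± 2.58 FPKM in valine) and -0.03 for Dnah14 (29.0 ± 3.97 and 28.3 ± 1.87 FPKM). Dnah6 (log2 change -0.26) and Dnah10 (-0.26) had limma adjusted p-values of 0.183 and 0.185. Dnah7a, Dnah7b and Dnah7c are near-identical copies between which reads may be split, and their log2 changes were -0.11, -0.13 and -0.19, of which the first 2 were positive (0.03 and 0.04) with the length trend removed. Their summed level was 63.8 to 86.2 FPKM in control and 61.9 to 71.6 FPKM in valine samples, so the groups overlapped. Over all 13 heavy chains limma called 0 higher (0 also at an unadjusted p below 0.05) and 3 lower, and 12 had a negative change, while the other 54 genes held 11 rises, 0 falls and 42 positive changes. With equal totals all 13 heavy chains and 26 of the other 54 genes were negative. The summed heavy chain level was 597 to 719 FPKM in control and 413 to 527 FPKM in valine samples.

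Intermediate and light chains complete the dynein arms, and 2 of 5 rose. Dnali1, the inner arm light intermediate chain, read 203, 187, 198 and 202 FPKM in the control samples and 236, 222, 237 and 240.2 FPKM in the valine samples. The groups did not overlap, and Dnali1 rose from 197 ± 7.49 to 234 ± 7.86 FPKM (log2 change 0.25 with an SE of 0.0450, limma adjusted p = 0.0160). Dnal4, a dynein light chain, rose from 81.4 ± 3.996 to 100.2 ± 5.44 FPKM (log2 change 0.30 with an SE of 0.0562, limma adjusted p = 0.0177), with control samples at 78.4 to 87.0 and valine samples at 94.9 to 108 FPKM. Both calls were lost with equal totals, where the log2 changes were 0.13 and 0.18. Dnaic1 (the outer arm intermediate chain DNAI1) stood at 95.9 ± 1.66 FPKM in control and 89.6 ± 3.58 FPKM in valine (limma adjusted p = 0.212), and with equal totals it was called lower (log2 change -0.21, limma adjusted p = 0.0217). The remaining outer arm chains Dnaic2 and Dnal1 had log2 changes of 0.14 and 0.02 (Dnal1 -0.09 with equal totals) and were not called.

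Of the 9 radial spoke genes 3 rose, and the median log2 change of the 9 was 0.28. Rsph1, a spoke head protein, read 1552, 1595, 1647 and 1688 FPKM in the control samples and 2032, 1916, 2112 and 2166 FPKM in the valine samples. Every valine sample was above every control sample, and the level rose from 1620.2 ± 59.5 to 2057 ± 108 FPKM (log2 change 0.34 with an SE of 0.0495, limma adjusted p = 0.00704). Rsph1 kept its call in 19 of 20 alternatives. The call was lost with quantile normalisation, where the log2 change was 0.10 (limma adjusted p = 0.0944). Rsph3a, a spoke stalk protein that anchors protein kinase A, read 259.9, 269, 263 and 285 FPKM in the control samples and 341, 307, 364 and 367 FPKM in the valine samples. It rose from 269 ± 11.3 to 345 ± 27.8 FPKM (log2 change 0.35 with an SE of 0.0644, limma adjusted p = 0.0159) without overlap. Its copy Rsph3b rose from 169 ± 7.06 to 207 ± 8.41 FPKM (log2 change 0.29 with an SE of 0.0479, limma adjusted p = 0.0115).

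Both Rsph3 copies lie on chromosome 17, and reads may be split between them. Their sum was 423 to 465 FPKM in control and 507 to 575 FPKM in valine samples, and Rsph3a held 61.1% to 61.8% of it in control and 60.6% to 64.5% in valine samples. All 7 genes with an Rsph symbol had a positive change, but with equal totals Rsph6a (-0.05) and Rsph10b (-0.0029) were negative on the log2 scale. Rsph9, a spoke head protein, stood at 109 ± 11.1 FPKM in control and 136 ± 12.01 FPKM in valine (limma adjusted p = 0.0690), with overlap. Rsph6a, the spoke head protein of sperm, stood at 287 ± 24.0 and 300.2 ± 5.81 FPKM (log2 change 0.07). Cfap206, a protein of the spoke base and the second most abundant gene of the set, stood at 683 ± 33.0 and 670.3 ± 20.01 FPKM (log2 change -0.03, limma adjusted p = 0.776).

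Tektins form filaments inside the doublets, and 2 of 5 rose. Tekt4 read 361, 362, 409.7 and 394 FPKM in the control samples and 461, 472, 443 and 426 FPKM in the valine samples. The groups were separated by a narrow gap, and Tekt4 rose from 382 ± 24.3 to 450.4 ± 20.1 FPKM (log2 change 0.24 with an SE of 0.0564, limma adjusted p = 0.0364). Tekt2, with control samples at 256 to 289 and valine samples at 307 to 325 FPKM, rose from 272 ± 17.0 to 314 ± 7.87 FPKM (log2 change 0.21 with an SE of 0.0516, limma adjusted p = 0.0449). These were the least stable calls among the rises: Tekt4 kept its call in 7 and Tekt2 in 6 of 20 alternatives. Tekt1, Tekt3 and Tekt5 had log2 changes of 0.20, 0.07 and 0.10 and were not called, and Tekt3 and Tekt5 were negative (-0.05 and -0.02) with equal totals.

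Of the 7 other microtubule inner proteins 2 rose and all had a positive change, although Cfap52 was negative with equal totals (-0.09). Cfap53, which is also needed for left-right patterning, read 112, 111, 114 and 112 FPKM in the control samples and 134, 134, 143 and 136 FPKM in the valine samples. The control samples were nearly equal and well below all valine samples, and Cfap53 had the smallest adjusted p of the set (log2 change 0.28 with an SE of 0.0398, limma adjusted p = 0.00640). Cfap45, a protein of the doublet lumen, read 108, 103, 128 and 115 FPKM in the control samples and 145, 141, 145 and 143 FPKM in the valine samples. It rose from 114 ± 10.9 to 143 ± 1.64 FPKM (log2 change 0.34 with an SE of 0.0666, limma adjusted p = 0.0200). With equal totals the call of Cfap45 was lost (limma adjusted p = 0.0623). Cfap126 (log2 change 0.17) and Cfap161 (0.23) had overlapping groups and were not called.

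**Figure D2:**
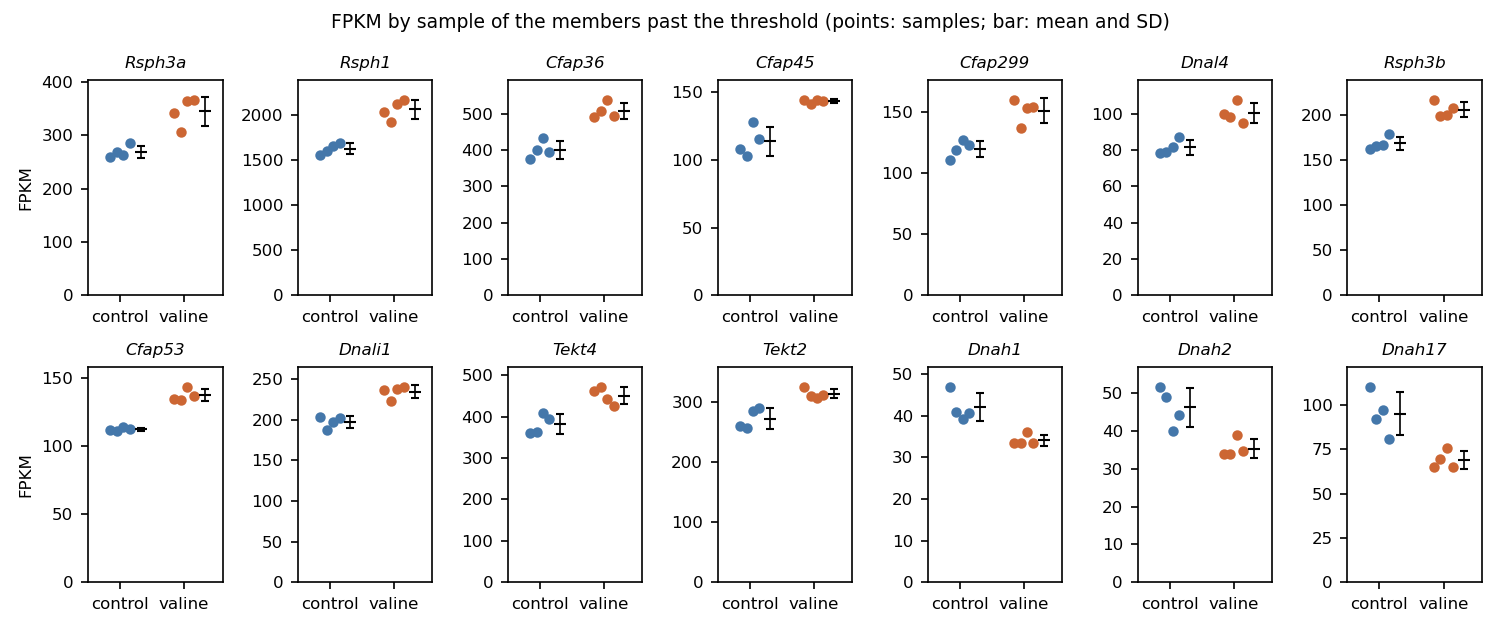
FPKM in each sample of the 14 axoneme genes past the threshold, with 1 panel per gene, control and valine on the x axis and a vertical axis that starts at 0; points are samples and bars the mean and SD of 4. In each panel the groups do not overlap, for example Rsph1 at 1552 to 1688 FPKM in control and 1916 to 2166 FPKM in valine.

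Proteins of the central apparatus, which the spokes read, were not called: 0 of 8 rose or fell in limma, 1 (Cfap69) had an unadjusted p below 0.05, and the median log2 change was -0.07. Cfap69 read 159, 165, 145 and 181 FPKM in the control samples and 145, 123, 146 and 145 FPKM in the valine samples, and the groups overlapped (log2 change -0.22, limma adjusted p = 0.138). With equal totals Cfap69 was called lower (-0.33, limma adjusted p = 0.0302). Cfap65, needed for a normal sperm tail, stood at 151 ± 15.9 FPKM in control and 148 ± 13.7 FPKM in valine. The tethers and anchors that hold inner arms to the doublet, Cfap43, Cfap44, Cfap57, Cfap73 and Cfap100, were not called either (0 of 5 in limma, also at an unadjusted p below 0.05), and had a median log2 change of 0.03, which was -0.09 with equal totals. Cfap43 stood at 151 ± 5.05 and 154 ± 8.67 FPKM, and Cfap57 at 135 ± 4.13 and 139 ± 6.30 FPKM. Cfap73 stood at 34.9 ± 9.12 and 40.5 ± 5.42 FPKM, with control replicate 3 (48.5 FPKM) above every other sample.

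The nexin-dynein regulatory complex had 3 genes with a Drc symbol, and limma called none, with 1 (Drc3) at an unadjusted p below 0.05. Drc3 read 33.4, 26.7, 33.2 and 32.7 FPKM in the control samples and 42.5, 36.2, 40.3 and 35.6 FPKM in the valine samples. All valine samples were higher, but the log2 change of 0.29 did not pass (SE 0.0910, limma adjusted p = 0.0888). Drc1, the scaffold of the complex, had near-equal means of 149 ± 12.3 and 149.7 ± 11.1 FPKM, and Drc7 had a log2 change of 0.11.

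Of the 12 remaining Cfap genes 2 rose. Cfap36, a binding partner of the small GTPase ARL3, read 376, 399, 434 and 394 FPKM in the control samples and 489.8, 508, 539 and 494 FPKM in the valine samples. The groups were far apart, and Cfap36 rose from 401 ± 24.4 to 508 ± 22.2 FPKM (log2 change 0.34 with an SE of 0.0544, limma adjusted p = 0.00994). Cfap299 rose from 119 ± 6.84 to 151 ± 10.1 FPKM (log2 change 0.33 with an SE of 0.0641, limma adjusted p = 0.0186), with control samples at 110.4 to 126 and valine samples at 136 to 159.8 FPKM. Cfap299 kept its call in 12 of 20 alternatives and lost it with equal totals (limma adjusted p = 0.0512). Cfap298 and Cfap410 had higher values in all valine than in all control samples without passing the test (limma adjusted p = 0.166 and 0.161). The shortest transcript of the set, Cfap97d1 (798 bases of exon), stood at 258 ± 33.0 and 309 ± 49.8 FPKM and was not called.

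Exon length separated the rises from the falls. Length here is the union of a gene's exons in GENCODE vM21, which was found for all 67 genes. The 11 risen genes measured 1372 to 5717 bases and the 3 fallen genes 13043 to 16126 bases. Of the 22 shortest genes (798 to 2624 bases) 7 rose and 0 fell, and among all tested genes of these lengths 7.51% rose and 2.61% fell. Of the 22 genes of middle length (2683 to 6627 bases) 4 rose and 0 fell, against 2.85% and 6.08% of all tested genes of these lengths. Of the 23 longest (6938 to 26820 bases) 0 rose and 3 fell, against 0.756% and 9.27%. Across the 67 genes Spearman's rho of log2 change with length was -0.72, and -0.52 across the 54 that are not heavy chains. Across 21688 tested genes with a length it was -0.34. These are correlations across genes that share the same 8 libraries, and genes are not independent replicates.

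After a smooth trend on length was removed from each sample, a step chosen after seeing earlier results of these data, 8 axoneme genes were called higher and 0 lower, where 2.85% and 2.89% of all tested genes were called. At an unadjusted p below 0.05, 2 heavy chains were lower after this step, as were 2019 of the 22077 tested genes and 54 of the 701 of at least 12 kb. The 8 were Rsph1, Rsph3a, Rsph3b, Cfap36, Cfap45, Cfap53, Dnal4 and Dnali1. Tekt2, Tekt4 and Cfap299 kept a positive log2 change (0.15, 0.20 and 0.24) without a call. Dnah17, Dnah2 and Dnah1 kept a negative one (-0.30, -0.22 and -0.15, limma adjusted p = 0.135, 0.158 and 0.244). Among the 13 heavy chains 9 were then negative and 4 positive, with a median log2 change of -0.10. The rho with length was -0.38 across the 67 genes and -0.07 across the 54 that are not heavy chains. Members of at least 12 kb before this step had a median log2 change of -0.22 (14 genes), against -0.13 over 701 tested genes of that length. The cause of the relation with length was not tested.

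**Figure D3:**
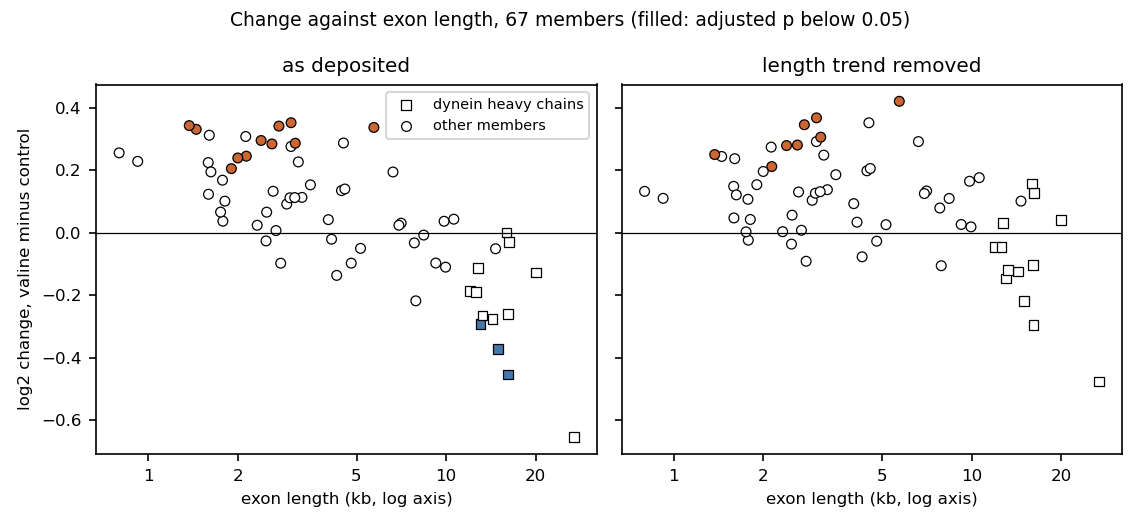
The log2 change (valine minus control) of the 67 axoneme genes is plotted against exon length in kilobases on a log axis, before (left) and after (right) the length trend of each sample was removed, with heavy chains marked apart and filled points past the threshold. On the left the 11 rises end at 5717 bases and the 3 falls begin at 13043 bases; on the right 8 rises and 0 falls are filled.

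Ratios between genes of 1 library do not depend on its total. Rsph1 stood at 14.1, 17.3, 17.0 and 20.8 times the FPKM of Dnah17 in the control samples and at 31.2, 27.6, 27.8 and 33.4 times in the valine samples. Dnali1 stood at 4.32 to 5.03 times the FPKM of Dnah1 in control and 6.59 to 7.195 times in valine samples. Neither ratio overlapped between groups, which restates the opposite changes of these pairs on a scale without the library total. This was fixed in advance, since the groups of each gene did not overlap. Each pair set a short gene against a long gene (Rsph1 1372 and Dnah17 16126 bases, Dnali1 2133 and Dnah1 13043 bases). The ratios thus do not remove the relation with length. The ratio of Dnah8 to Dnah17, the partners of the sperm outer arm, was 1.89 to 3.25 in control and 1.36 to 2.88 in valine samples and overlapped. The 7 genes with an Rsph symbol summed to 2415 to 2623 FPKM in control and 2950.4 to 3239 FPKM in valine samples. Rsph1 alone held 1552 to 1688 and 1916 to 2166 FPKM of these sums. Tektins summed to 1509.7 to 1609 and 1675 to 1832 FPKM. Unlike the ratios, these sums depend on the library total. With equal totals 3 of the 7 Rsph genes and 0 of the 5 tektins were called higher, and 2 of each were negative. All 67 genes together held 0.959% to 0.986% of the FPKM total in control and 0.973% to 1.03% in valine samples, so that share overlapped.

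The heavy chains did not vary as 1 block. Among the 12 with a mean of at least 5 FPKM, 8 had a GC content of the longest transcript of 41.9% to 48.0% (Dnah3, Dnah6, Dnah7a, Dnah7b, Dnah7c, Dnah8, Dnah12 and Dnah14) and 4 of 53.4% to 55.0% (Dnah1, Dnah2, Dnah10 and Dnah17). All 8 of the first kind were above their own mean over the 8 samples in control replicates 2 and 4, but only 3 and 1 of them in control replicates 1 and 3. The 4 GC-rich ones were all above their mean in control replicates 1 and 2, with their largest median deviation, 0.33 on the log2 scale, in control replicate 1. In the valine samples 0, 0, 1 and 0 of the 4 GC-rich and 5, 1, 0 and 4 of the 8 GC-poor heavy chains were above their mean. The 3 called heavy chains all belong to the GC-rich kind, as does Dnah10, which was not called. Their mean levels (Dnah17 81.9, Dnah2 40.7 and Dnah1 38.0 FPKM) were also above those of all other heavy chains but Dnah8. Across the 13 heavy chains Spearman's rho of log2 change was -0.58 with GC content and -0.68 with mean FPKM. The part of either trait was not tested. The rank correlation of a sample's deviations with GC content over the 12 heavy chains ran from 0.67, -0.38, 0.88 and -0.43 in control to -0.89, 0.13, 0.34 and -0.86 in valine samples. Over all genes with a GC value it stayed between -0.09 and 0.15. With a GC trend removed from each sample, a step chosen after seeing these values, 12 axoneme genes were called higher and 3 lower, where 3.92% and 4.58% of all tested genes were called. The 3 lower calls were again the heavy chains (limma adjusted p = 0.0215, 0.0444 and 0.0356 for Dnah17, Dnah2 and Dnah1).

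**Figure D4:**
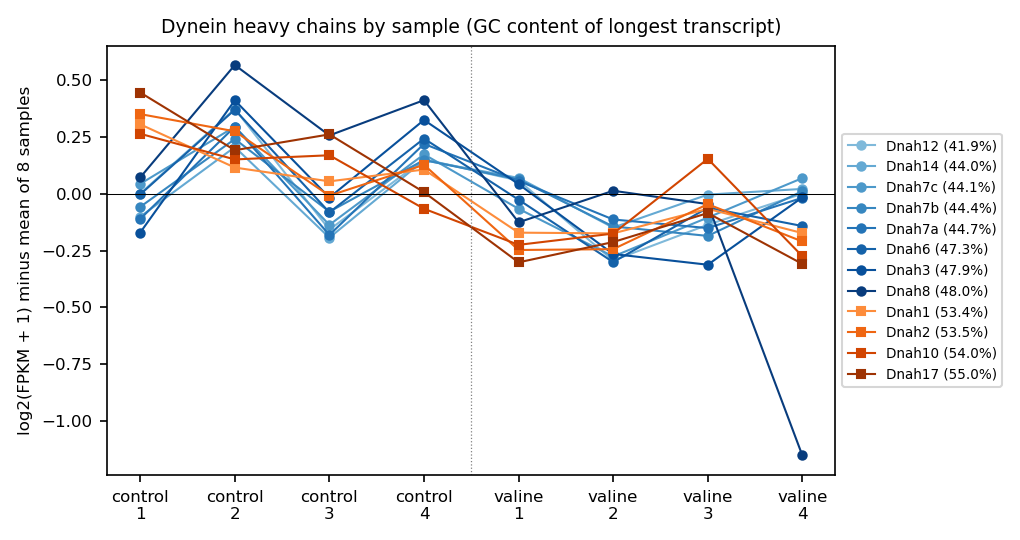
Each line is 1 of 12 dynein heavy chains, drawn as log2(FPKM + 1) minus its mean over the 8 samples. Samples stand on the x axis by replicate number within a group, and the key gives GC content. The 4 GC-rich heavy chains are highest together in control replicate 1, all 8 GC-poor ones lie above their mean in control replicates 2 and 4, and Dnah8 is lowest in valine replicate 4.

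Axoneme genes under other names, from lists chosen with earlier results of these data known, gave the following counts. For comparison, 4.32% of all tested genes rose and 4.41% fell, and 7.51% of those of 798 to 2624 bases rose. Of 17 cytoplasmic assembly factors for dynein arms 1 rose, Dnaaf1 (884 ± 17.8 to 994 ± 39.7 FPKM, log2 change 0.17, limma adjusted p = 0.0401). Of 6 outer arm docking genes 1 rose, Ttc25 (86.9 ± 3.65 to 101.3 ± 3.37 FPKM). Of 14 spoke partners 3 rose and 0 fell: Ropn1l, a spoke protein (1727 ± 64.0 to 2216 ± 159 FPKM, log2 change 0.36, limma adjusted p = 0.0101), Dydc1 and Nme5. Of 17 further microtubule inner proteins 7 rose and 0 fell, among them Tex37 (345 ± 41.8 to 481 ± 52.9 FPKM), Spata45 and Saxo2. Of 10 genes of the regulatory complex and its rulers 1 rose, Iqcd, and of 12 further central apparatus genes limma called 0 (at an unadjusted p below 0.05, 2 higher and 1 lower). The medians of these 6 lists on the log2 scale were 0.17, 0.18, 0.17, 0.19, 0.13 and 0.02 in the order given. With equal totals the calls were 0, 0, 1, 2, 0 and 0 higher and 0 lower in each list, and with the length trend removed 0, 1, 1, 3, 2 and 0 higher and 0 lower in each. The shares of all tested genes called higher and lower were 1.64% and 9.16% with equal totals and 2.85% and 2.89% with the length trend removed.

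Of 28 genes of intraflagellar transport, the traffic that builds the tail, 3 rose and 3 fell, where 4.32% and 4.41% of all tested genes did. Ift43 rose from 103 ± 5.47 to 139.8 ± 7.48 FPKM (log2 change 0.44, limma adjusted p = 0.00540), and Ift57 and Ift74 rose too. Ift140 fell from 193 ± 6.49 to 150.2 ± 11.8 FPKM (log2 change -0.36, limma adjusted p = 0.0117), as did Kif3b and the motor Kif17. With equal totals 1 of the 28 was called higher and 8 lower, against 1.64% and 9.16% of all tested genes. With the length trend removed 4 were called higher and 0 lower, against 2.85% and 2.89% (3 lower at an unadjusted p below 0.05 in limma). Of 9 tested transcription factors of ciliary and haploid genes, Tbpl1 (207 ± 16.8 to 260.0 ± 10.04 FPKM, limma adjusted p = 0.0177) and Crem (83.5 ± 2.96 to 96.6 ± 3.36 FPKM, limma adjusted p = 0.0315) rose. Rfx2, a regulator of spermatid cilia genes, fell from 132 ± 7.51 to 112 ± 4.57 FPKM (log2 change -0.23, limma adjusted p = 0.0347), and with the length trend removed it had a log2 change of -0.13 and was not called (limma adjusted p = 0.258). With equal totals 0 of the 9 were called higher and 2 lower, and with the GC trend removed 1 (Tbpl1) was called higher and 0 lower. Among all tested genes 1.64% and 9.16% were called with equal totals and 3.92% and 4.58% with the GC trend removed. Foxj1, the master regulator of motile cilia, stood at 93.1 ± 11.5 and 107 ± 14.0 FPKM and was not called (limma adjusted p = 0.321).

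FPKM totals were 944659 to 974626 in control and 1027660 to 1070520 in valine samples, and relative depth, taken from whole-number steps among low values, was 0.871 to 1.00 and 0.865 to 0.993, with the absolute depth unknown. Of 12 elongating spermatid markers 9 rose and 0 fell, where 4.32% and 4.41% of all tested genes did. Higher calls were 7 with equal totals, 2 with quantile normalisation and 4 with the length trend removed (1.64%, 1.80% and 2.85% of all tested genes). The sum of these markers was 48653 to 50818 FPKM in control and 61113 to 73802 FPKM in valine samples, without overlap. Of 12 round spermatid markers 3 rose and 1 fell, with sums of 2648 to 2977 and 2656 to 3020 FPKM that overlapped. Spermatocyte markers (1 rose and 2 fell of 12) summed to 1481 to 1582 and 1494 to 1559 FPKM. Spermatogonial markers (0 rose and 2 fell of 10) summed to 116 to 137 and 128 to 148 FPKM, and Sertoli markers (2 rose and 1 fell of 12) to 801 to 902 and 828 to 913 FPKM. Of 12 Leydig cell markers 11 fell, with sums of 1736 to 2485 FPKM in control and 565 to 879.8 FPKM in valine samples. The part of these shifts in the axoneme changes was not tested.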

How the data were processed

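RNA of mouse testis was sequenced in 4 control and 4 valine samples. The authors aligned reads with HISAT2 to GRCm39, per the submitters' processing notes, and deposited 1 table of FPKM values; quantifier, annotation and strand setting are not given in the sources used here. Columns were matched to samples by group and replicate number in their headings (0 unused).

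Gene names, types, exon lengths and GC content came from GENCODE vM21 and RefSeq GRCm38.p6 by Ensembl identifier (52133 of 55414 named, 98.2% of tested genes with a length). Genes averaging 1 FPKM or more were fitted as log2(FPKM + 1) in limma 3.58.1 (R 4.3.3), with treatment as the only term and a mean-variance trend in the moderation; tests were two-sided, with p-values adjusted over all tested genes (Benjamini-Hochberg, 0.05). Length and GC trends were removed per sample by loess (span 0.3). No absolute depth is known, so no counting error can be given.

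The members, roles and lists were chosen with earlier results of these data known. Named were all called members, the 2 most abundant and the smallest p of each role, the 3 longest and shortest, the 3 on each side of the expression minimum, and up to 3 called genes of each list by size of change. Other members, Ift57, Ift74, Kif3b, Foxj1 and the marker genes were named after their values were seen. Alternatives were a pseudocount of 0.1, no minimum, a minimum of 5, equal totals, quantile normalisation, robust moderation, no trend in the moderation, array weights, the replicate block, leaving out each library, and the length and GC trends.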

Additional observations from a re-analysis of the deposited data

Results flagged for a closer look

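Within a group of 4 samples, 10 values stood far from the other 3, by a gap that took up most of the group's range (above Dixon's critical value), among 102 groups examined (51 genes in 2 groups). Chance alone flags about 1 group in 20. Among the heavy chains, Dnah8 in valine replicate 4 was at 88.5 FPKM, with the next lowest at 181 FPKM. Dnah1 in valine replicate 3 was the highest of its group at 36.0 FPKM, still below every control sample. Dnah11, the airway paralog, reached 1.84 FPKM in valine replicate 3, with the next highest at 0.403 FPKM.

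Cfap69 was lowest in valine replicate 2, at 123 FPKM. Cfap73 was highest in control replicate 3, at 48.5 FPKM. Drc3 was lowest in control replicate 2, at 26.7 FPKM, and Cfap97d2 was highest there, at 3.40 FPKM. Outside the symbol set, Ttc25 was highest in control replicate 3 (92.3 FPKM), Tex37 in valine replicate 4 (560.0 FPKM) and Kif17 in valine replicate 2 (231.6 FPKM, just above control replicate 2 at 231.3 FPKM).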

How the results depend on the processing

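The counts of axoneme genes called were 11 higher and 3 lower. They became 5 and 5 with equal totals and 3 and 5 with quantile normalisation. The lower count became 0 with the length trend or the length and GC trends removed, 1 with no expression minimum and 1 without the trend in the moderation. Leaving out 1 library gave 5 to 11 higher and 0 to 3 lower calls. Higher calls were 5 without control replicate 1, 7 without control replicate 2 and 5 without valine replicate 1; lower calls were 0 without control replicate 1 or 2 or valine replicate 1, 2 or 4, and 1 without control replicate 4. The labels do not say whether the replicate numbers pair the samples. Same-numbered samples deviated with correlations of -0.017, -0.040, 0.10 and 0.11 across genes. The other pairs of a control and a valine sample ran from -0.17 to 0.15. Low correlations of this kind cannot settle whether the samples were paired. With the replicate block 8 axoneme genes were called higher and 1 lower, and 581 and 489 of all tested genes.

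All tested genes called higher numbered 954 and all tested genes called lower 974. The higher calls were 568 with no minimum, 363 with equal totals, 398 with quantile normalisation, 630 with the length trend removed, 626 with both trends removed and 503 without the trend in the moderation, and the lower calls 2022, 637 and 636 with equal totals, the length trend and both trends removed. Leave-one-out gave 381 to 795 higher and 461 to 802 lower calls. Spearman's rho of change with length was -0.55 with quantile normalisation, -0.38 and -0.42 with the length trend and both trends removed, and -0.73 to -0.69 with 1 library left out.

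Among the genes chosen by the naming rule these changed sign on the log2 scale, and none of them was called. With equal totals the changes were -0.0859 for Cfap43, -0.0745 for Cfap57, -0.1096 for Drc1, -0.0040 for Drc7, -0.0750 for Dnah9, -0.0573 for Cfap47. With quantile normalisation they were -0.0789 for Cfap43, -0.0711 for Cfap57, -0.1047 for Drc1, and with array weights -0.0106 for Drc1. With the length trend removed they were 0.0794 for Cfap65, 0.0401 for Dnah7b, 0.1277 for Dnah14, and with both trends removed 0.1081 for Cfap65, 0.0167 for Dnah7b, 0.1008 for Dnah14. With the GC trend removed Cfap47 stood at -0.0245. Leave-one-out ranges that crossed 0 were -0.0805 to 0.0249 for Cfap65, -0.0062 to 0.0501 for Cfap43, -0.0443 to 0.0517 for Drc1, -0.0687 to 0.0398 for Dnah9, -0.0994 to 0.0336 for Dnah14, -0.1565 to 0.0269 for Cfap97d2 and -0.0510 to 0.1245 for Cfap47. The cause was not tested.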
